A study of Danio rerio with 6 samples.

Results

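The cytosolic ribosomal protein genes were taken as every row of the zebrafish (Danio rerio) expression files whose symbol starts with rpl or rps, apart from the rps6k kinases. Of 31452 genes in the files, 83 rows met this rule, 47 of the large subunit (rpl) and 36 of the small subunit (rps), and all 83 reached a value of 1 in 3 or more libraries. The RNA came from whole embryos at 4 days post fertilization, in pools of 10. The 3 control pools had received a control morpholino, and the 3 morphant pools a morpholino against splicing of glut12, a sugar transporter gene that the files list as slc2a12. A morpholino is an injected antisense oligomer that binds a transcript in every cell it reaches and lowers gene function without changing the genome. The labels name neither the fish strain nor the clutches, so each p-value describes variation among pools that may be technical in part.

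The cytosolic ribosome makes nearly all proteins of the cell and is built from a large subunit, which joins amino acids, and a small subunit, which reads the mRNA. Each ribosome holds a single copy of most of its proteins, and their genes are known to be expressed at high and coordinated levels. Their mRNAs carry a 5′ terminal oligopyrimidine (TOP) motif through which translation is adjusted to nutrients and growth signals by the TOR kinase. Loss of ribosomal protein genes in zebrafish and humans is known to impair red blood cell formation and to activate p53.

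Every ribosomal protein row had a lower mean in morphants than in controls on the log2 scale with the authors' scaling, as did 80 of the 83 with libraries scaled to equal totals. The median log2 fold change was -0.25 for the large subunit (range -0.45 to -0.09) and -0.27 for the small subunit (range -0.50 to -0.08). These medians correspond to values 16.0% and 16.9% lower. Over all 26082 genes tested the median was 0.00, and 50.1% of genes lay below 0. With equal library totals the large and small subunit medians were -0.14 and -0.15, and that of all genes was 0.11. Values appear to be read counts that the authors had divided by a size factor for each library and rounded, called normalised counts here. Fold changes are on the scale of log2(normalised count + 1), morphant minus control, each followed by its standard error (SE) from limma.

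No single member passed the test over all genes. In limma with Benjamini-Hochberg adjustment, 0 of the 83 members were called at an adjusted p of 0.05, as were 0% of all genes in the lower direction and 0.023% (6 genes) in the higher one. The smallest adjusted p of a member was 0.182, for rps16. At an unadjusted limma p of 0.05, 23 of 47 large subunit members and 17 of 36 small subunit members were lower and 0 were higher, where 6.93% of all genes were lower and 8.99% higher. All 3 morphants lay below all 3 controls for 21 large and 14 small subunit members, 42.2% of the members, against 10.2% of all genes. Members share library and scaling and are not independent replicates. Among the 1850 genes with a mean of at least 1000, a level that 79 of the 83 members reach, 68.5% lay below 0 and 29.2% were lower without overlap. At the unadjusted limma threshold, 432 of these 1850 genes were lower and 115 higher. Shares of all genes given further on cover every level, while most members are among these 1850. The other 1771 genes of that level had a median of -0.09 (0.03 with equal library totals).

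**Figure D1:**
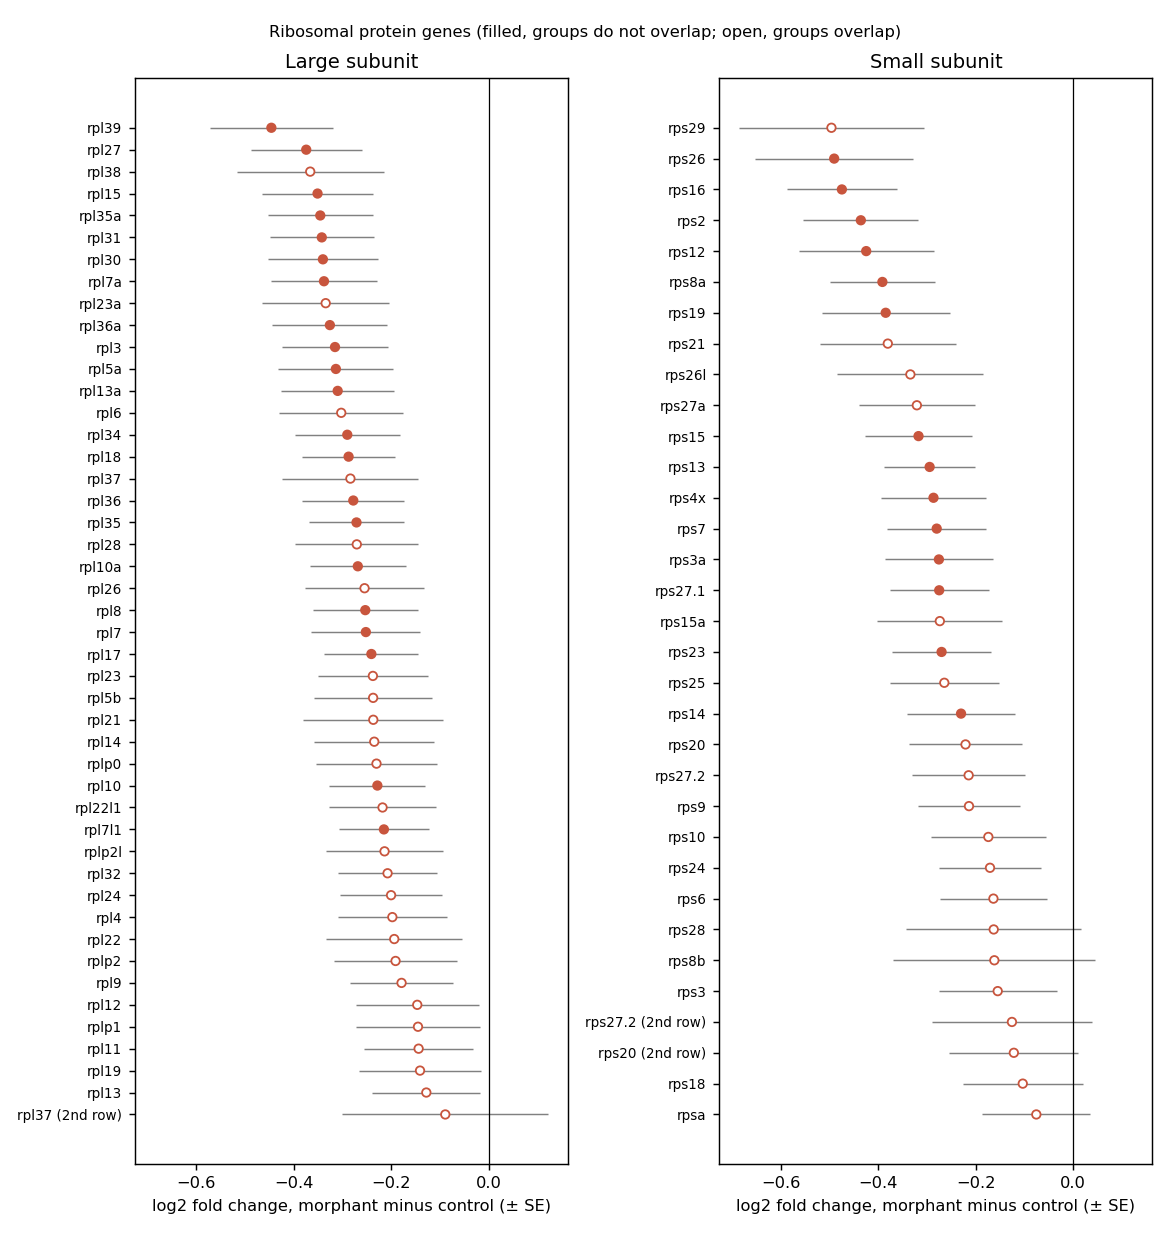
Log2 fold change, morphant minus control, on the log2(normalised count + 1) scale for ribosomal protein rows, with the SE as bars; filled points are genes whose groups do not overlap, and 79 of the 83 rows are shown. All points lie left of 0, from -0.50 for rps29 to -0.08 for rpsa, and most SE bars overlap those of their neighbours. The bars include library shifts that most members share, so their overlap does not show whether members differ.

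The libraries of each group did not sit at 1 level. Each member was set against its own mean over the 6 libraries on the log2 scale, and the median of these deviations was taken in each library. For both subunits together it was 0.31, 0.11 and -0.02 in controls 1, 2 and 3 and 0.00, -0.24 and -0.15 in morphants 1, 2 and 3. Control 1 was the highest and morphant 2 the lowest library, while control 3 and morphant 1 were at nearly the same level, so that the groups overlapped. Control 1 was the highest library for 74 of the 83 members, and morphant 2 the lowest for 73. Morphant 1 lay above control 3 in 45 members, and in 32 of the 48 members whose groups overlapped this came through morphant 1 alone, since morphants 2 and 3 were below all controls there.

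**Figure D2:**
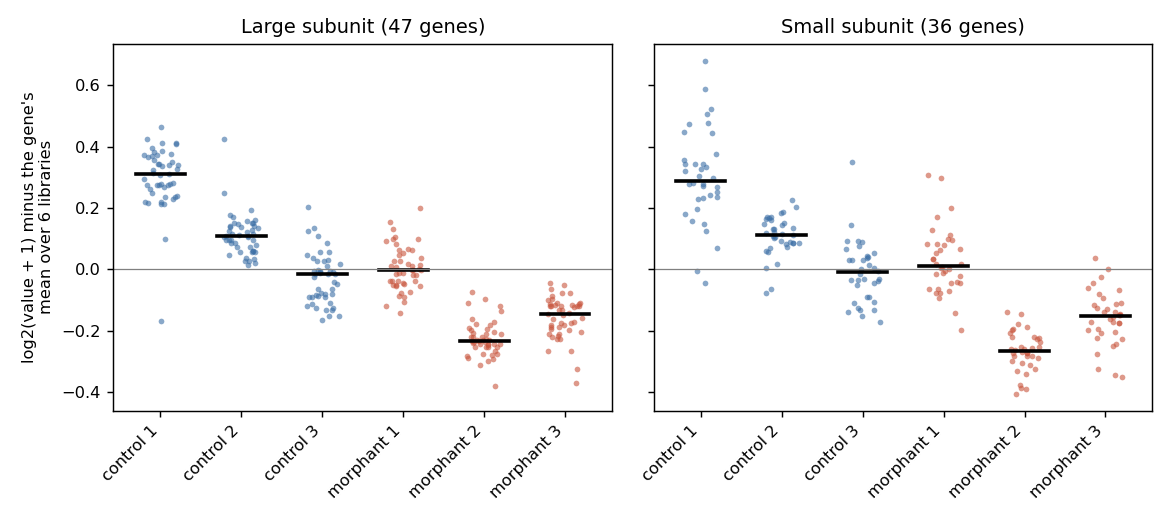
Deviation of each ribosomal protein row from its own mean over the 6 libraries (log2 of normalised count + 1), by library, with 1 point per gene and the median as a black bar; blue is control and red is morphant. In both subunits control 1 lies highest, control 3 and morphant 1 lie close to 0, and morphant 2 lies lowest.

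As a share of all normalised counts, ribosomal protein rows took 5.22%, 4.68% and 4.36% in controls 1, 2 and 3 and 4.57%, 4.05% and 4.26% in morphants 1, 2 and 3. The mean share was 4.75% ± 0.44 in controls against 4.29% ± 0.26 in morphants (SD over 3 libraries, n = 3), with morphant 1 above control 3. Large subunit rows took 2.80% ± 0.27 and 2.53% ± 0.14 and small subunit rows 1.95% ± 0.17 and 1.76% ± 0.12, in the same order. The summed large subunit value was 1.44, 1.43 and 1.43 times the summed small subunit value in controls 1 to 3 and 1.43, 1.46 and 1.43 times in morphants 1 to 3. The balance between the subunits thus differed between groups by less than its spread within the morphants, and it was not tested further. In a whole-embryo pool, fewer cells of a type that is rich in these mRNAs and less of the mRNA per cell cannot be told apart.

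Library totals were 11762915, 11449397 and 11065259 normalised counts in controls 1 to 3 and 10744090, 10397713 and 10543839 in morphants 1 to 3. Every morphant total thus lay below every control total. Estimated depths lay between 7550000 reads (control 1) and 15170000 reads (morphant 1). Across 15942 genes whose mean reached 50, log2 values of control 1 had an r of 0.961 with control 2 and of 0.955 with control 3, while controls 2 and 3 had an r of 0.987 with each other (a description across genes, which are not independent). Without control 1 all 83 members still lay below 0, with medians of -0.16 and -0.18 for the large and small subunit. The number without overlap was again 21 and 14 (13.7% of all genes). That count could hardly change, since control 1 was the highest library for 74 members and the lowest for 1. Members lower at the unadjusted limma threshold used above fell from 23 large and 17 small to 11 and 7. The share of all genes there fell from 6.93% to 5.13%. Marker lists chosen after the data were seen were set beside these values. Of 14 exocrine pancreas genes, 11 were highest in control 1. All 14 lay below 0 in morphants, with a median log2 fold change of -0.54, and 0 were lower at the unadjusted limma threshold. Their summed normalised counts were 33148, 17956 and 23533 in controls 1 to 3 and 8389, 19665 and 27450 in morphants 1 to 3, and 0 of the 14 were at 0 throughout. Of 11 neuronal genes, 6 were highest and 4 lowest in control 1, and the median deviation of this list was 0.19 in control 1 and between -0.04 and 0.06 in the other 5 libraries. The summed counts of the 11 genes ranged from 29538 to 30706 in controls and from 28102 to 30861 in morphants. Of 13 genes of dividing cells, 4 were highest and 2 lowest in control 1, their summed counts ranged from 9749 to 11245 and from 10806 to 11529, and neither list had a gene at 0 throughout. Markers of muscle (acta1b), skin (krt4), liver (fabp10a), lens (cryaa), heart (myl7) and blood (hbae3) had values above 0 in every library. Of 11 tissue markers in all, 10 lay below 0 in morphants, with a median log2 fold change of -0.49, and 0 passed adjustment. Without overlap 4 were lower and 1 was higher, against 10.2% and 11.6% of all genes. The muscle gene acta1b was at -0.61 ± 0.12 (limma adjusted p = 0.158, range over the alternatives 0.034 to 0.573). The photoreceptor gene rho was at -0.58 ± 0.24, myl7 at -0.49 ± 0.15 and the cartilage gene col2a1a at -0.49 ± 0.14, while the neuronal gene elavl3 lay at 0.75 ± 0.34. Control 1 was low for elavl3, at 737 against 1897 and 2106 in controls 2 and 3 and 2310, 2531 and 2416 in morphants 1 to 3. Without control 1 its log2 fold change was 0.27. The list of 11 neuronal genes had a median log2 fold change of -0.16, with 7 genes below 0. At the unadjusted limma threshold 3 of them were lower and 1 was higher, against 6.93% and 8.99% of all genes. For the 13 genes of dividing cells the median was -0.02, also with 7 below 0, and 0 were lower and 1 was higher at that threshold. The part of cell composition or depth in the ribosomal protein values was not tested. The targeted gene slc2a12, whose read count a block of splicing need not lower, was at 160, 145 and 143 against 98, 97 and 90, apart but not past adjustment (-0.65 ± 0.13, limma adjusted p = 0.158). Over the alternative settings its limma adjusted p ranged from 0.0467 to 0.573, on both sides of 0.05.

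The large subunit catalyses peptide bond formation. Around its catalytic centre, rpl3, a protein that helps to shape this centre, was at 23008, 20056 and 18083 in controls 1 to 3 and at 16472, 15599 and 16849 in morphants 1 to 3. The groups did not overlap, and morphant 3 was the highest morphant library, with a log2 fold change of -0.32 ± 0.11 (limma adjusted p = 0.246). The gene rpl10, whose protein joins late in assembly next to the tRNA path, was at 10288, 8952 and 8406 in controls and 8262, 7470 and 7797 in morphants. The separation between control 3 and morphant 1 was narrow (log2 fold change -0.23 ± 0.10). The third gene of this group, rpl8, was at 14086, 12495 and 10887 against 10799, 9970 and 10508, again with control 3 just above morphant 1.

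Proteins that line or surround the tunnel through which the new chain leaves include those of rpl4, rpl17, rpl19, rpl23a, rpl26, rpl31, rpl35 and rpl39. These 8 genes had a median log2 fold change of -0.26, and 4 of them were lower without overlap, against 42.2% of all members and 10.2% of all genes. The gene rpl39 (ENSDARG00000036316, chromosome 14 of Zv9), which encodes a very small protein in the tunnel wall, had the largest difference of the large subunit. It was at 4361, 3329 and 3473 in controls and at 3069, 2656 and 2446 in morphants, with a gap between control 2 and morphant 1 and control 1 far above the rest. Its log2 fold change was -0.45 ± 0.13 (limma adjusted p = 0.206), and -0.33 without control 1. At the other end of this group, rpl19, which also forms a bridge to the small subunit, was at 8879, 8327 and 6811 in controls and 8027, 6454 and 7248 in morphants. Here morphants 1 and 3 exceeded control 3, and the log2 fold change was -0.14 ± 0.12. The tunnel gene rpl4 was at 16685, 14428 and 12823 against 13464, 12138 and 12516, with morphant 1 above control 3.

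The stalk of the large subunit recruits the translation factors that hydrolyse GTP. The median log2 fold change of rplp0, rplp1, rplp2, rplp2l and rpl12 was -0.19 (range -0.23 to -0.15). Of these 5, 0 were lower without overlap, against 42.2% of all members and 10.2% of all genes. The stalk base gene rplp0 was at 23218, 19919 and 17394 in controls and 18459, 15861 and 17015 in morphants, with morphant 1 above control 3 (log2 fold change -0.23 ± 0.12, limma adjusted p = 0.394). The acidic stalk protein gene rplp1 was at 10176, 8954 and 7698 against 9049, 7155 and 8008, and both morphants 1 and 3 exceeded control 3. Its log2 fold change of -0.15 ± 0.13 shrank to -0.05 without control 1. Whether the stalk differed from the rest of the large subunit was not tested.

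The proteins of rpl5 and rpl11 join 5S ribosomal RNA in a particle that is also known to bind Mdm2, the negative regulator of p53, when ribosome assembly is disturbed. The log2 fold changes of the 3 genes of this particle ranged from -0.31 to -0.14, and whether they differed was not tested. The gene rpl5a was at 9467, 7538 and 7380 in controls and 7167, 6147 and 6226 in morphants, without overlap (log2 fold change -0.31 ± 0.12). Its paralog rpl5b was at 8730, 7467 and 6504 against 6926, 5866 and 6370, with overlap (-0.24 ± 0.12). The gene rpl11 was at 5400, 4586 and 4393 against 4844, 3920 and 4246, where morphant 1 exceeded controls 2 and 3 (-0.14 ± 0.11, limma adjusted p = 0.553).

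Of the other large subunit genes, those with the lowest log2 fold changes after rpl39 were rpl27, rpl38, rpl15 and rpl35a. The gene rpl27 was at 5357, 4310 and 4192 in controls and 3890, 3408 and 3350 in morphants, without overlap (-0.37 ± 0.11, limma adjusted p = 0.218). The gene rpl38, which in mouse is known for its part in the translation of Hox mRNAs and the patterning of the axial skeleton, was at 1765, 1426 and 1493 against 1525, 1052 and 1093. Morphant 1 lay inside the control range here while morphants 2 and 3 lay well below it (-0.37 ± 0.15). The genes rpl15 and rpl35a both separated the groups. The former was at 8854, 7150 and 6694 against 6245, 5665 and 5769, and the latter at 4021, 3267 and 3386 against 3105, 2674 and 2610. Their log2 fold changes were -0.35 ± 0.11 and -0.35 ± 0.11 (limma adjusted p of 0.233 and 0.226). Among genes of high value, rpl7a was at 16426, 14006 and 12665 in controls and 11802, 10909 and 11204 in morphants, without overlap, and rpl7 was at 15361, 12531 and 12047 against 11738, 10465 and 11174. The gene rpl13 had the highest log2 fold change of the abundant large subunit genes (-0.13 ± 0.11), at 7832, 7489 and 6030 against 6748, 6149 and 6529, where all 3 morphants exceeded control 3.

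The spread among members was wider in the small subunit, with an SD of log2 fold changes of 0.11 against 0.08 in the large subunit. The median SE of a single member was 0.12 in the small and 0.11 in the large subunit. This SE includes shifts of whole libraries that most members share, which largely cancel from the spread among members. It therefore cannot show whether members differed from each other. At the channel through which mRNA enters, rps2 and rps3 gave unlike values although both had high normalised counts. The gene rps2 (ENSDARG00000077291, chromosome 3) was at 23001, 18962 and 17415 in controls and 14749, 13732 and 15162 in morphants, with a clear gap between control 3 and morphant 3. Its log2 fold change was -0.44 ± 0.12 (limma adjusted p = 0.198), and -0.32 without control 1. The gene rps3 was at 8691, 9108 and 7015 in controls and 7807, 6614 and 7794 in morphants, and morphants 1 and 3 both exceeded control 3 (-0.15 ± 0.12, limma adjusted p = 0.555).

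On the side where mRNA leaves, rps26 and rpsa lay at opposite ends of the small subunit. The gene rps26 (ENSDARG00000037071, chromosome 23), whose protein contacts the mRNA just upstream of the codon being read, was at 2175, 1507 and 1538 in controls and 1448, 1107 and 1134 in morphants. The groups did not overlap, control 1 stood far above the rest, and the log2 fold change of -0.49 ± 0.16 (limma adjusted p = 0.235) became -0.32 without control 1. The gene rpsa (ENSDARG00000019181, chromosome 6), whose protein is also known as a laminin receptor, was at 19851, 19294 and 16265 in controls and 18914, 16193 and 17381 in morphants. Morphants 1 and 3 exceeded control 3, and its log2 fold change was the highest of all members (-0.08 ± 0.11, limma adjusted p = 0.770). In the same region rps14 was at 6502, 5335 and 4948 against 4906, 4506 and 4812, without overlap (-0.23 ± 0.11). Over rps14, rps26, rps26l, rps28 and rpsa the median was -0.23.

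In the part of the small subunit where tRNA meets the mRNA, rps15 and rps23 both separated the groups, but narrowly. Control 3 lay just above morphant 1 in each. These 2 genes were chosen after values were seen, and 42.2% of all members and 10.2% of all genes were lower without overlap. The gene rps15 was at 6058, 5428 and 4827 against 4777, 3967 and 4330 (-0.32 ± 0.11), and rps23, whose protein monitors codon pairing, at 5749, 5124 and 4791 against 4722, 3961 and 4304 (-0.27 ± 0.10). The gene rps16 (ENSDARG00000045487, chromosome 4), whose protein reaches the tRNA in the peptidyl site with its tail, had the smallest adjusted p of all members. It was at 4465, 3679 and 3490 in controls and 3064, 2583 and 2700 in morphants, and every morphant lay below every control (-0.47 ± 0.11, limma adjusted p = 0.182). It passed only with library weights estimated by limma (adjusted p = 0.0466, range over the alternatives 0.0466 to 0.573), where 0.429% of all genes were called lower.

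The lowest log2 fold change of all members was that of rps29 (ENSDARG00000041232, chromosome 20), a small zinc-binding protein of the subunit head. Its normalised counts were 4780, 2824 and 3294 in controls and 2957, 2250 and 2383 in morphants. Control 1 carried much of this difference, since morphant 1 exceeded control 2 (-0.50 ± 0.19, limma adjusted p = 0.275, and -0.28 without control 1). The gene rps12, which encodes a protein of the beak of the subunit, was at 7711, 5687 and 5471 against 5085, 4259 and 4582, without overlap (-0.42 ± 0.14). The gene rps27a, which encodes ubiquitin fused to a ribosomal protein, was at 8934, 7579 and 7003 against 7062, 5770 and 5974, with morphant 1 just above control 3 (-0.32 ± 0.12). The gene rps6, whose protein is phosphorylated by the S6 kinases downstream of TOR, was at 10969, 10882 and 8739 against 9312, 8463 and 9420. Morphants 1 and 3 both exceeded control 3 (-0.16 ± 0.11, limma adjusted p = 0.491). The gene rps18 was at 4869, 4934 and 4138 in controls and 5028, 3743 and 4260 in morphants, and here morphant 1 was the highest of the 6 libraries (-0.10 ± 0.12). The further genes of high value rps4x and rps3a separated the groups, at 14470, 12585 and 11226 against 10943, 9939 and 10359 and at 13728, 11489 and 10723 against 10492, 9286 and 9790.

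Diamond-Blackfan anaemia is a human failure of red blood cell formation caused by ribosomal protein mutations. A list of 10 zebrafish counterparts of such genes was drawn up, which is not complete (rps7, rps10, rps19, rps24, rps26, rpl5a, rpl5b, rpl11, rpl26 and rpl35a). All 10 lay below 0, with a median of -0.27, and 0 passed adjustment. Lower without overlap were 5, against 42.2% of all members and 10.2% of all genes. These values were close to those over all members. The founding gene of the disease, rps19, was at 6492, 4623 and 4736 in controls and 4133, 3814 and 4053 in morphants, without overlap (-0.38 ± 0.13, limma adjusted p = 0.246). With control 1 left out it was -0.23.

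Several ribosomal proteins of zebrafish have 2 related genes, and the ratio within such a pair is not affected by the scaling of a library. The gene rps26l was at 167, 182 and 165 per 100 counts of rps26 in controls and 187, 190 and 195 in morphants. The groups did not overlap for this ratio, which averaged 171 ± 9.67 and 191 ± 3.82 (SD, n = 3 per group). The gap between control 2 and morphant 1 was narrow. This was the only pair looked at whose groups were apart, and the pairs were chosen after values were seen. Whether the ratio differed between groups was not tested. The gene rpl5b stood at 93.1 ± 5.52 per 100 counts of rpl5a in controls and 98.1 ± 3.68 in morphants, rpl22l1 at 39.9 ± 2.50 and 39.3 ± 3.00 per 100 counts of rpl22, and rplp2l at 126 ± 5.74 and 124 ± 4.50 per 100 counts of rplp2. In each of these 3 pairs the groups overlapped. They also overlapped for rps27.2 relative to rps27.1, with means of 100.7 ± 3.70 and 105 ± 1.45 per 100 counts. Reads from close copies can be assigned to either gene, and the counting method is not given in the sources used here, so these ratios are uncertain to that degree.

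**Figure D3:**
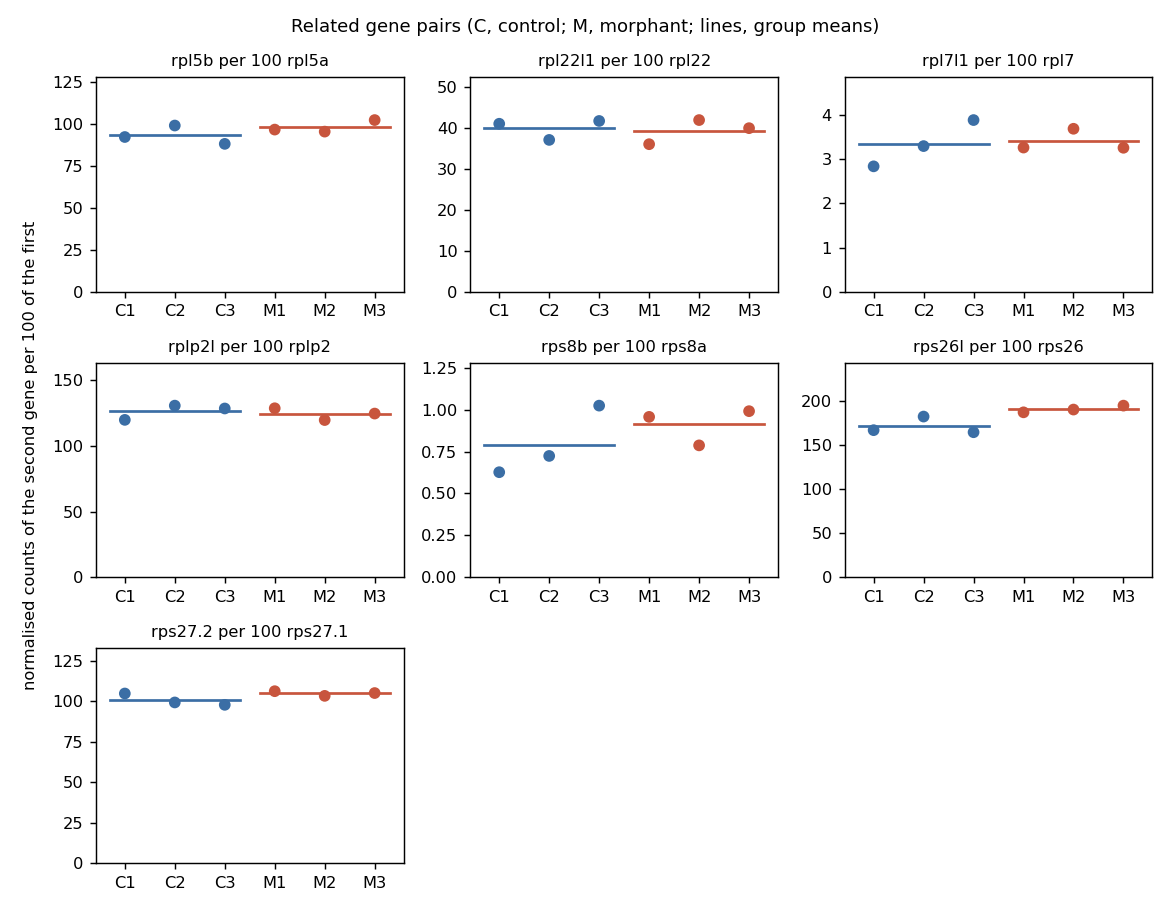
Normalised counts of the second gene of a related pair per 100 counts of the first, by library (C, control; M, morphant), with group means as lines; each axis starts at 0. The groups separate for rps26l relative to rps26 and overlap for the other 6 pairs shown.

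Other rows share most of a symbol but encode distinct proteins, and these also lay on both sides of the subunit medians. Among them rpl36a was at -0.33 ± 0.12 and rpl36 at -0.28 ± 0.10, and rpl23a at -0.33 ± 0.13 and rpl23 at -0.24 ± 0.11 on the log2 fold change scale. The genes rpl13a (-0.31 ± 0.12), rpl35 (-0.27 ± 0.10), rpl10a (-0.27 ± 0.10) and rps15a (-0.27 ± 0.13) had values between these.

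A few rows that meet the symbol rule had low values or uncertain identity. The gene rpl7l1, a relative of rpl7, was at 436, 413 and 468 in controls and 383, 386 and 364 in morphants, without overlap, and control 1 was not the highest library (-0.22 ± 0.09). The gene rps8b was at 69, 68 and 91 against 77, 54 and 73, while rps8a was at 11000, 9391 and 8884 against 8048, 6864 and 7363. The rps8a groups did not overlap (-0.39 ± 0.11), whereas those of rps8b did. The symbols rpl37, rps20 and rps27.2 each stood on 2 rows with different gene IDs. The lower rpl37 row, on chromosome 2, ranged from 56 to 85 over the 6 libraries and is paired with COA1, not a ribosomal protein, in the current gene table. The lower rps27.2 row, on chromosome 25, was at 238, 260 and 252 against 294, 217 and 188. The lower rps20 row, on chromosome 7 like the higher one, was at 1553, 1701 and 1389 against 1700, 1224 and 1369, and both of these rows overlapped between groups.

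Outside the rule, RPL37A and RPL29 carry their symbols in capitals and were looked at after the data were seen. RPL37A was at 5204, 3966 and 3842 in controls and 3789, 3077 and 3009 in morphants, and the groups did not overlap (-0.39 ± 0.14, limma adjusted p = 0.257). RPL29 was at 2267, 2358 and 1758 against 2327, 1672 and 1957, with morphant 1 close to control 2 (-0.10 ± 0.15, limma adjusted p = 0.772).

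To ask whether members differed among themselves, the libraries were also scaled to equal ribosomal protein totals, a setting chosen after the data were seen. The median of all genes then moved to 0.25, and log2 fold changes of members ranged from -0.24 (rps29) to 0.18 (rpsa). Under this scaling 0 members passed adjustment in limma, where 0.0268% of all genes did. At the unadjusted threshold of 0.05, 1 member was lower (rps16, -0.22, limma adjusted p = 0.233) and 0 were higher, where 1.05% of all genes were lower and 19% higher. The groups did not overlap, with lower morphants, for 3 large and 5 small subunit members (1.91% of all genes). Since this scaling moved the median of all genes to 0.25, these shares of lower genes are small by construction. They are no baseline for the members.

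Other genes of the translation machinery were described by their counts and medians, where 10.2% of all genes were lower and 11.6% higher without overlap. Among the 1850 genes with a mean of at least 1000, 541 (29.2%) were lower and 158 higher without overlap. The lists were not matched to other genes by level, so a share above 10.2% need not set a list apart. Of 7 rows for further proteins of the cytosolic ribosome, 7 lay below 0, with a median of -0.21, 3 were lower without overlap (42.9%) and 0 passed adjustment. The gene gnb2l1, which encodes Rack1, a scaffold on the head of the small subunit, was at 16973, 12947 and 12670 in controls and 11037, 10911 and 10932 in morphants. The groups were apart, with almost no spread among morphants (-0.36 ± 0.12, limma adjusted p = 0.238). Both rows named serbp1a, for a protein that binds ribosomes and mRNA, lay at -0.16 ± 0.08 and -0.26 ± 0.09.

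Elongation and other factors, many of them translated from TOP mRNAs, had a median of -0.19, with 20 of 29 below 0 and 7 lower (24.1%) and 1 higher without overlap. The gene eef2b, which encodes the factor that moves the ribosome along the mRNA, was at 44601, 42368 and 34550 in controls and 30443, 26985 and 30625 in morphants. All morphants lay below all controls, by more than for most ribosomal proteins (-0.46 ± 0.12, limma adjusted p = 0.199). The gene eef1a1l1, for the factor that brings aminoacyl-tRNAs, was at 105921, 101216 and 86963 against 89018, 78385 and 84877, and tpt1, a known TOP mRNA, at 21534, 19811 and 18428 against 18941, 15411 and 16638. In both, morphant 1 exceeded control 3. Subunits of initiation factor 3 had a median of -0.14, with 15 of 17 below 0 and 4 lower without overlap (23.5%). Among them eif3f was at 1768, 1360 and 1331 against 1104, 1033 and 1099 (-0.45 ± 0.12, limma adjusted p = 0.197), while eif3c (-0.15 ± 0.09), eif3ba (-0.11 ± 0.08) and eif3s10 (-0.02 ± 0.07) overlapped between groups.

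Genes that build ribosomes lay near the median of all genes. Of 70 ribosome biogenesis genes, 36 lay below 0, with a median of -0.01 (0.10 with equal library totals, where all genes had 0.11), and 3 were lower (4.29%) and 6 higher without overlap, shares below those over all genes (10.2% and 11.6%). The abundant nucleolar genes ncl, npm1a and nop56 had log2 fold changes of -0.04 ± 0.08, 0.04 ± 0.08 and -0.08 ± 0.08. The gene mdn1, whose giant ATPase strips assembly factors from the large subunit, was at 323, 426 and 378 in controls and 510, 548 and 499 in morphants, above the controls throughout (0.47 ± 0.12, limma adjusted p = 0.191). RNA polymerase I, which makes ribosomal RNA, had a median of 0.06 over 12 genes, of which 4 lay below 0 and 3 were higher without overlap (11.6% of all genes). Its largest subunit gene polr1a was at 338, 367 and 380 against 463, 463 and 432 (0.32 ± 0.09, limma adjusted p = 0.206), while the factor gene ubtf overlapped between groups (0.06 ± 0.08). Differences between these lists and the ribosomal proteins were not tested.

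The TOR pathway list had a median of -0.03 (0.09 with equal library totals), with 18 of 31 genes below 0 and 5 lower (16.1%) and 3 higher without overlap, the latter close to the share over all genes (11.6%). The kinase gene mtor was at 1472, 1363 and 1526 in controls and 1322, 1443 and 1520 in morphants, with full overlap (-0.03 ± 0.09). The gene ddit4, an inhibitor of TOR complex 1, was at 332, 252 and 225 against 152, 120 and 148, well apart (-0.93 ± 0.17, limma adjusted p = 0.147, range over the alternatives 0.0304 to 0.573). The gene eif4ebp2, for a repressor of cap-dependent translation, was at 2904, 2725 and 2703 against 2333, 2571 and 2654, narrowly apart (-0.14 ± 0.08). Mitochondrial ribosomal proteins, which translate the mitochondrial genome, had a median of -0.12, with 47 of 57 below 0 and 5 lower (8.77%) and 1 higher without overlap, both below the shares over all genes (10.2% and 11.6%). Without control 1 their median was -0.03 and 36 lay below 0. Their most abundant gene mrps34 overlapped between groups (-0.06 ± 0.07), whereas mrpl9 was at 100, 104 and 113 in controls and 189, 150 and 178 in morphants (0.70 ± 0.14, limma adjusted p = 0.158).

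**Figure D4:**
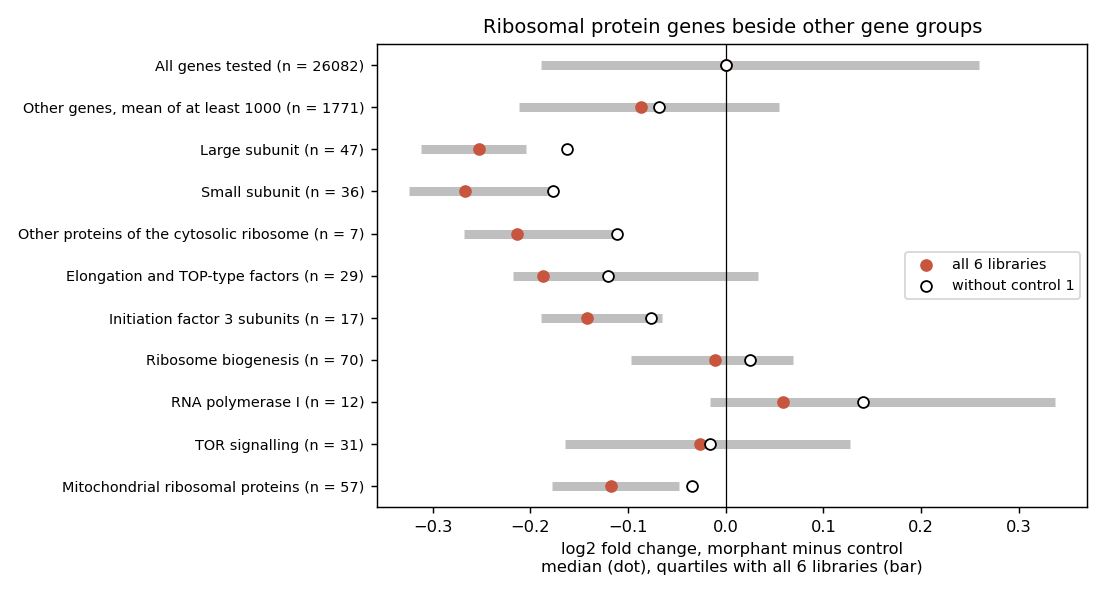
Median log2 fold change, morphant minus control (red dots, all 6 libraries; open dots, without control 1), with quartiles of all 6 libraries as grey bars, for ribosomal proteins and other gene groups. The large and small subunit medians are -0.25 and -0.27, ribosome biogenesis lies at -0.01, and all genes tested lie at 0.00.

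The counts of members depended on single libraries and on the variance model, while their direction did so little. Fitted in limma without the trend of variance on mean, 5 large and 3 small subunit members were lower at an unadjusted p of 0.05. The share of all genes there was 5.51%. With library weights estimated by limma, 36 large and 25 small subunit members were lower, against 8.58% of all genes. With controls 1, 2 or 3 left out, 11, 14 and 36 large subunit members and 7, 9 and 25 small subunit members were lower at an unadjusted limma p of 0.05, against 5.13%, 6.61% and 7.08% of all genes. With morphants 1, 2 or 3 left out these counts were 29, 2 and 3 and 26, 3 and 4, against 6.45%, 4.29% and 4.68% of all genes. Without control 3, 38 large and 27 small subunit members had groups without overlap (17.1% of all genes), and without morphant 1, 38 and 29 (16.8%). Scaling the libraries to equal totals moved the median of all genes to 0.11 and the subunit medians to -0.14 and -0.15, and 7 large and 6 small subunit members were then lower without overlap (5.06% of all genes). In that scaling 8 large and 7 small subunit members were lower at an unadjusted limma p of 0.05, against 3.05% of all genes. The shares of all genes in this paragraph cover every level and are not matched to the high values of most members.

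**Figure D5:**
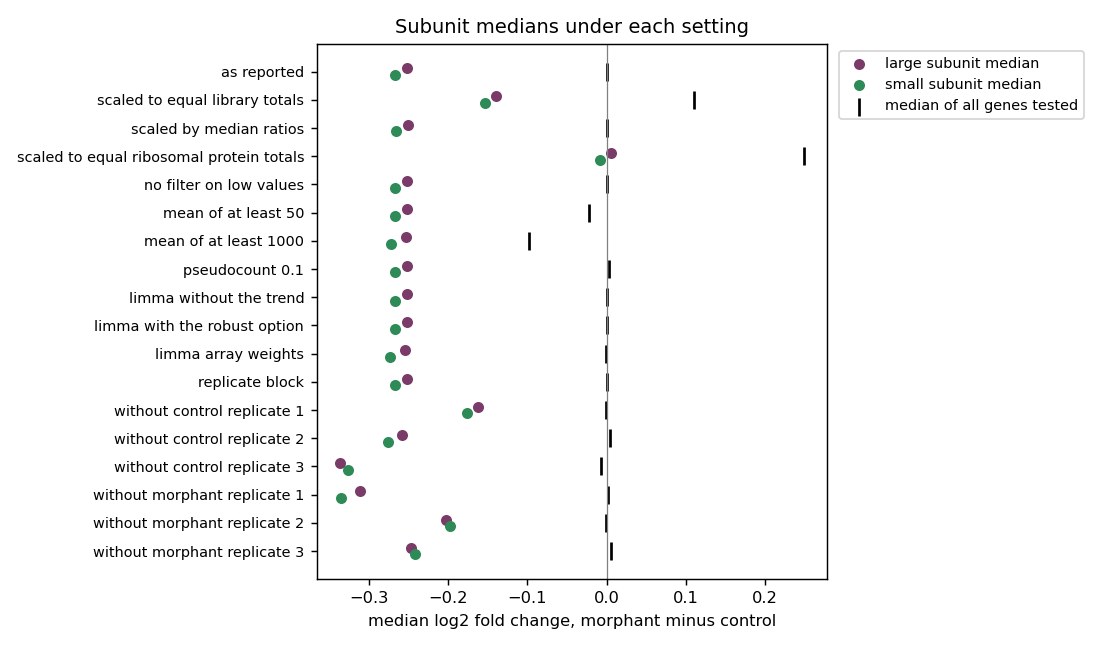
Median log2 fold change of the large subunit (purple) and small subunit (green) and of all genes tested (black ticks) under each setting of the comparison. The subunit medians stay between -0.34 and -0.14 except where libraries are scaled to equal ribosomal protein totals, which places them near 0 by construction. A change of scaling moves them together with the median of all genes.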

How the data were processed

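The 6 deposited files each give 1 value per Ensembl gene with its symbol and chromosome. Per the submitters' processing notes, reads were placed on Zv9. Which aligner and read counter were run, and whether strand was used, is not given in the sources used here. Each deposited value is treated as a score, since the authors appear to have divided read counts by a size factor per library and rounded them. This was read from the values and from a last line that names size factors without a value, which names no gene and was left out. Steps among low values gave the worth of 1 read (0.7081 to 1.5581) and from it the depth, an estimate. Depth limits precision mainly for rps8b, rpl7l1 and the lower rows of rpl37 and rps27.2.

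Of all genes, 26082 with a value of 1 or more in 3 or more libraries were tested as log2(value + 1) in limma 3.58.1 (R 4.3.3), with group alone in the model, a trend of variance on mean, two-sided p-values and Benjamini-Hochberg adjustment over all of them. Lists were described by counts and medians without a test. Named in each subunit were the 5 members of highest mean, the 5 lowest and 3 highest fold changes, chosen functional genes and paralogs, and in other lists genes from the 3 of highest mean and the lowest p. The functional groups, the gene pairs, rpl8, rps15, rps23, the capital-letter rows and the markers were chosen after values were seen. All members and lists were chosen with earlier results of these data known. The current gene table held 72 of the 83 member IDs. The fit was tested on simulated data. Alternatives changed scaling, filter, pseudocount, variance model, block and libraries. Values of 4 single members, and of rows related to them, are not reported here, though these members enter the counts and medians of the subunits.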

Additional observations from a re-analysis of the deposited data

How the results depend on the processing

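The medians of both subunits lay between -0.34 and -0.14 in every alternative except scaling to equal ribosomal protein totals, chosen after the data were seen, where they were 0.0062 for the large and -0.0088 for the small subunit. That scaling divides each library by the sum of the members themselves, so medians near 0 follow from it. In it 21 large and 19 small subunit members lay below 0, and 3 and 5 were lower without overlap (1.91% of all genes). That share of all genes is also small by construction and is no baseline for the members. With equal library totals 46 and 34 lay below 0 and 7 and 6 were lower without overlap (5.06% of all genes). With 1 library left out, the median ranged from -0.34 to -0.16 for the large and from -0.34 to -0.18 for the small subunit. The number below 0 then ranged from 46 to 47 and from 35 to 36. The number lower without overlap ranged from 21 to 38 and from 14 to 29, where the share over all genes was between 13.3% and 17.1%. Leaving out a library cannot lower this number, so its lower ends carry no information on stability. No large subunit member was called in limma in any alternative, and 1 small subunit member, rps16, was called with library weights (0.429% of all genes were then called lower).

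Over all genes, 6 higher and 0 lower calls became 10 and 1 with equal library totals, 10 and 2 with a mean of at least 50, 12 and 48 with a mean of at least 1000 (chosen after the data were seen), 24 and 6 without the trend, 32 and 19 with the robust option and 217 and 112 with library weights. A pseudocount of 0.1 gave 2 higher calls, and no filter on low values 1 lower call. With 1 library left out, higher calls ranged from 1 to 3 and lower calls from 0 to 1. The cause of these changes was not tested.

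Deviations of same-numbered pools had r of 0.104, -0.059 and 0.118 over genes, and controls 2 and 3 correlated best with a morphant of another number, so the numbers were not taken to pair the samples. With the replicate number as a block, limma called 2 higher and 0 lower genes and 0 members, and the medians were the same. At an unadjusted limma p of 0.05, 30 large and 22 small subunit members were then lower, against 6.63% of all genes.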
